A study of Mus musculus with 15 samples.

Results

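Solute carriers are the membrane proteins that move amino acids, sugars, metals, nucleosides, ions and other small molecules across the plasma membrane and the membranes of organelles. The genes described here are those on a mouse expression array whose single annotated symbol begins with Slc and a family number. Each gene is represented by its brightest probe set (the highest mean log2 signal over the 15 arrays), and a gene was kept where its mean signal reached 50 in at least 1 of 6 groups. Of the 150 such genes measured, 94 met this minimum, out of 8251 genes with 1 symbol on the array, and 5384 of those met the same minimum. Because the minimum was set on the same signals that are compared below, a gene that met it in its highest group only had to differ between groups, and counts over the 94 genes are descriptions. The minimum was met in all 6 groups by 59 of them, in some groups only by 35, and in a single group by 4 of those 35. Among genes described below, Slc30a1 met it in 1 group, and Slc1a5, Slc2a3, Slc22a4, Slc22a21, Slc22a23 and Slc27a1 met it in 2. The genes nearest to the minimum were Slc33a1, Slc39a3 and Slc6a18 above it, with highest group means of 50.8, 52.5 and 55.0, and Slc2a5, Slc7a9 and Slc22a12 below it, at 47.6, 47.5 and 45.4.

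The RNA came from dendritic cells (DC), the antigen-presenting cells that prime T cells, grown from the bone marrow of female NOD (non-obese diabetic) mice aged 6-8 weeks. GM DC were grown for 4 days with GM-CSF (1 ng/ml) and purified on a 16% metrizamide gradient. GM4 DC were grown for 4 days with GM-CSF (1 ng/ml) and IL-4 (1 ng/ml) and purified on a 14.5% gradient. In the title of the series the GM4 preparation is called therapeutic and the GM preparation non therapeutic. The comparison of GM4 with GM DC thus asks how the therapeutic preparation differs. Both kinds of DC were activated with lipopolysaccharide (LPS, 10 µg/ml) and interferon-γ (IFN-γ, 50 ng/ml), and RNA was taken at 0, 6 and 20 h. At 0 h each kind of DC had 3 arrays. At 6 h there were 2 for GM and 3 for GM4 DC, and at 20 h each kind had 2. They are described as biological replicates. For 1 of them, GM4 0 h replicate 1, the labels give neither the cytokine doses nor a gradient. The source names of the GM4 0 h arrays mention exposure to LPS and IFN-γ although their titles say 0 h. Groups follow the titles, so before activation means 0 h, and a response means the change from 0 h. No array was of cells kept for 6 or 20 h without LPS and IFN-γ. A change from 0 h therefore cannot be told apart from time in culture, nor the effect of LPS from that of IFN-γ.

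Activated DC are known to shift from oxidative metabolism to glycolysis, a change that raises their need for glucose, which enters through the facilitative carriers of the SLC2 family. Amino acid carriers set how much arginine, cystine, leucine and glutamine a myeloid cell can take up, and arginine is the substrate of the inducible nitric oxide synthase. Metal carriers move iron, copper and zinc into or out of the cytosol and the phagosome, where withholding or delivering a metal is part of the defence against ingested microbes.

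The arrays were similar in overall level, with medians over the non-control probe sets of 40.1 to 48.5, and arrays of the same group correlated at 0.966 or above. The ratio of 3′ to 5′ Gapdh control signals, a measure of how intact the RNA was, ran from 1.18 to 2.46 in GM DC and from 1.03 to 1.48 in GM4 DC. The same ratio for actin ran from 1.43 to 2.26 in GM DC, highest at 20 h (2.15 and 2.26), and from 1.13 to 1.44 in GM4 DC. Its part in the differences between GM4 and GM DC was addressed only by the covariate fits given below. All 7 dendritic cell markers of a fixed list were measured, and their summed signal was 9564 to 22091 over the 15 arrays. In group means at 0 h, Cd86 was 91.45 in GM and 797.8 in GM4 DC, and Ccr7 was 646.8 and 3049. Itgax, at 1153 and 1027, was the only marker of this list lower in GM4 DC at 0 h. What this difference at 0 h contributed to the comparisons below was not tested. The 6 monocyte and macrophage markers, all measured, summed to 11997 to 23176 in GM DC and to 3919 to 7998 in GM4 DC, so every GM array lay above every GM4 array. Adgre1 went the other way at 20 h, with group means of 491.2 in GM and 662.2 in GM4 DC. The 8 neutrophil markers, all measured, summed to 6354 to 14671 at 0 and 6 h and to 2740 to 4119 at 20 h. Lcn2 went the other way, with group means at 0 and 20 h of 89.12 and 1239 in GM and 379.3 and 1094 in GM4 DC. Ly6g did so in GM DC only (55.01 and 87.06), and the remaining markers of the list had lower means at 20 h than at 0 h in both kinds. Lists for T and NK cells (5 of 7 markers measured), B cells (4 of 5), mast cells (5 of 6) and the erythroid lineage (5 of 7) had sums of 21.2 to 53.6, 81.3 to 217, 50.8 to 212 and 135 to 248. The mast cell sum was 64.2 to 75.0 in GM and 149 to 212 in GM4 DC before activation, and 78.5 to 81.3 and 106 to 133 at 6 h, with no overlap at either time. Kit and Mcpt8 were the higher markers in GM4 DC, while Cpa3, Mcpt2 and Ms4a2 had group means below 16 in all 6 groups. The B cell sum at 6 h (194 to 213 in GM, 147 to 152 in GM4 DC) and the erythroid sum at 6 h (228 to 248, 161 to 189) and 20 h (211 to 219, 156 to 173) were higher in GM DC without overlap. What these cell types contributed to the differences below was not tested, and in bulk RNA fewer cells of a type and less RNA per cell cannot be told apart.

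Differences are given on the scale of log2(signal + 16), as the difference of group means ± its standard error, from limma's moderated test across 12422 probe sets with Benjamini-Hochberg adjustment per comparison. A difference keeps its sign throughout, so that a gene lower in GM4 DC, or lower at the later time, has a negative value. A gene is said to pass, to rise or to fall at an adjusted p below 0.05. The offset of 16 makes these differences smaller than the change in signal for dim genes. At least 1 of the 9 comparisons between groups passed for 69 of the 94 genes, and none passed for 25. The matching share over all genes at the minimum was not computed, so these counts do not set the solute carrier genes apart. For every gene that passed in a comparison, the arrays of the groups compared did not overlap. This was so for nearly all genes at the minimum that passed. Examples are 1200 of 1227 in GM4 against GM DC at 0 h, 2172 of 2179 in GM DC at 6 h and 1804 of 1804 in GM4 DC at 20 h.

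**Figure D1:**
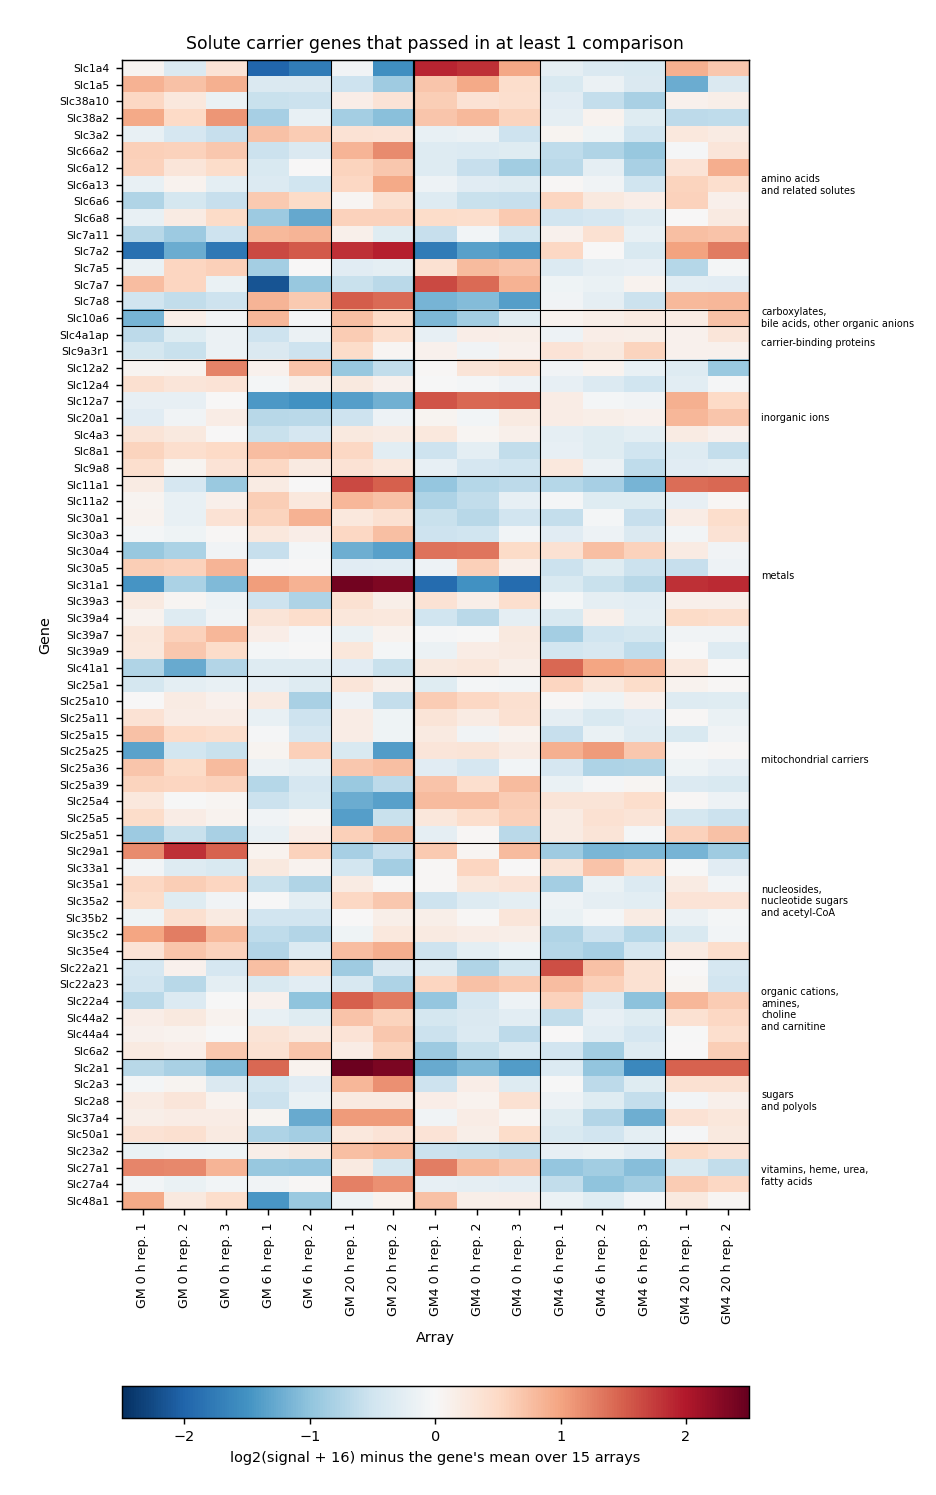
Signals of the 69 solute carrier genes that passed in at least 1 of 9 comparisons, on each of the 15 arrays, grouped by substrate class. Colour gives log2(signal + 16) minus the gene's mean over the 15 arrays; Slc31a1, Slc7a2 and Slc2a1 are high (red) on the 20 h arrays of both kinds of DC, and Slc12a7 and Slc1a4 are low (blue) on the GM 6 h arrays.

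Before activation, 7 of the 94 genes were higher and 18 lower in GM4 than in GM DC, which is 26.6% of them, beside 22.8% of all genes meeting the same minimum (11.6% higher, 11.2% lower) and 14% of all probe sets. At 6 h, 11 were higher and 15 lower in GM4 DC (27.7%, beside 18.4% and 11.1%). Of all genes at the minimum, 11.3% were higher and 7.04% lower at that time. At 20 h, 5 were higher and 4 lower (9.57%, beside 7.99% and 4.7%), while 5.33% and 2.66% of all genes at the minimum were. Among the 59 genes at the minimum in all groups, the counts higher and lower were 5 and 13 before activation, 7 and 10 at 6 h, then 4 and 4 at 20 h. The median difference of the 94 genes was -0.16, -0.04 and -0.15 at 0, 6 and 20 h, beside -0.04, 0.06 and -0.01 for all genes at the minimum. Higher in GM4 DC at all 3 times were Slc1a4, Slc12a7 and Slc25a4, and lower at all 3 were Slc7a8 and Slc11a2. Of the 7 genes higher at 0 h, 5 (71.4%) were among the 11 higher at 6 h (45.5% of those), and of the 18 lower at 0 h, 9 (50%) were among the 15 lower at 6 h (60%). Over all genes at the minimum these shares were 49.4% and 50.3% for higher and 34.4% and 54.9% for lower genes. No gene passed in opposite directions at different times. With the mean log2 ratio of 3′ to 5′ control signals as a covariate, 13, 16 and 3 genes passed at 0, 6 and 20 h. Without GM 6 h replicate 1 the count at 6 h was 14, and the count at 20 h fell to 5 when GM 20 h replicate 2 was left out. It was 2 without replicate 1 and 4 without replicate 2 of GM4 at 20 h. After centring each array on its median, the share of higher genes at 0 h was 38.1% in place of 28%.

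At 6 h more solute carrier genes fell than rose, in shares near those of all genes at the minimum, and at 20 h more rose than fell. In GM DC, 12 genes rose and 27 fell from 0 to 6 h, which is 41.5%, beside 40.5% of all genes at the minimum (12.6% higher, 27.9% lower) and 24.2% of all probe sets. In GM4 DC, 8 rose and 22 fell (31.9%, beside 27.1% and 15.9%), while 9.57% of all genes at the minimum rose and 17.5% fell. From 0 to 20 h, 18 rose and 13 fell in GM DC (33%, beside 43.4% and 27%), and 24 rose and 13 fell in GM4 DC (39.4%, beside 33.5% and 21%). Among the 59 genes at the minimum in all groups the counts were 11 and 15, 7 and 12, 15 and 7, and 16 and 8, in the same order. Over all genes at the minimum, more fell than rose at 20 h, with 17.1% higher and 26.3% lower in GM DC and 13.2% and 20.3% in GM4 DC, while the solute carrier genes had 19.1% higher and 13.8% lower in GM DC and 25.5% and 13.8% in GM4 DC. Without GM4 20 h replicate 2 the count in GM4 DC at 20 h was 21 in place of 37. The share of higher genes depended on the scaling: in GM DC at 20 h it was 58.1% as deposited and 69.2% under quantile normalization or median centring, and in GM4 DC at 6 h 26.7% as deposited and 38.5% under quantile normalization. Median centring moved the median of all probe sets from -0.01 to 0.11 in GM DC at 6 h and from 0.01 to 0.13 at 20 h.

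The 2 kinds of DC, whose responses share no array, had changed genes in common. At 6 h, 6 genes rose in both (50% of the 12 in GM DC and 75% of the 8 in GM4 DC) and 19 fell in both (70.4% of 27 and 86.4% of 22). At 20 h, 12 rose in both (66.7% of 18 and 50% of 24) and 9 fell in both (69.2% of 13 in each). Over all genes at the minimum the shares in common, of GM and of GM4 DC, were 60.1% and 78.8% for rises and 49.8% and 79.3% for falls at 6 h. At 20 h they were 56.2% and 72.7% for rises and 62.4% and 80.8% for falls. Slc6a6, Slc7a2, Slc7a8, Slc23a2 and Slc31a1 were above their 0 h level at 6 and 20 h in both kinds of DC. Slc1a5, Slc7a7, Slc12a7, Slc25a4, Slc25a39, Slc27a1, Slc29a1 and Slc38a2 were below it in both. The test of the difference between the GM4 and the GM response passed for 1 of the 94 genes at 6 h, Slc7a2 (1.06%, beside 1.8% of all genes at the minimum and 0.958% of all probe sets), and for none at 20 h (0%, beside 2.19% and 1.26%). At an unadjusted p below 0.05 the same limma test held for 17 genes at 6 h (18.1%) and 12 at 20 h (12.8%), beside 18.4% of all genes at the minimum at each time. The count at 6 h was 0 without GM 6 h replicate 1, GM4 0 h replicate 2 or 3, or GM4 6 h replicate 2, and 2 without GM 6 h replicate 2 (with Slc2a1, -2.03) or GM4 6 h replicate 1 (with Slc3a2, -1.09). At 20 h it was 1 without GM 0 h replicate 1 (Slc20a1, 1.05).

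**Figure D2:**
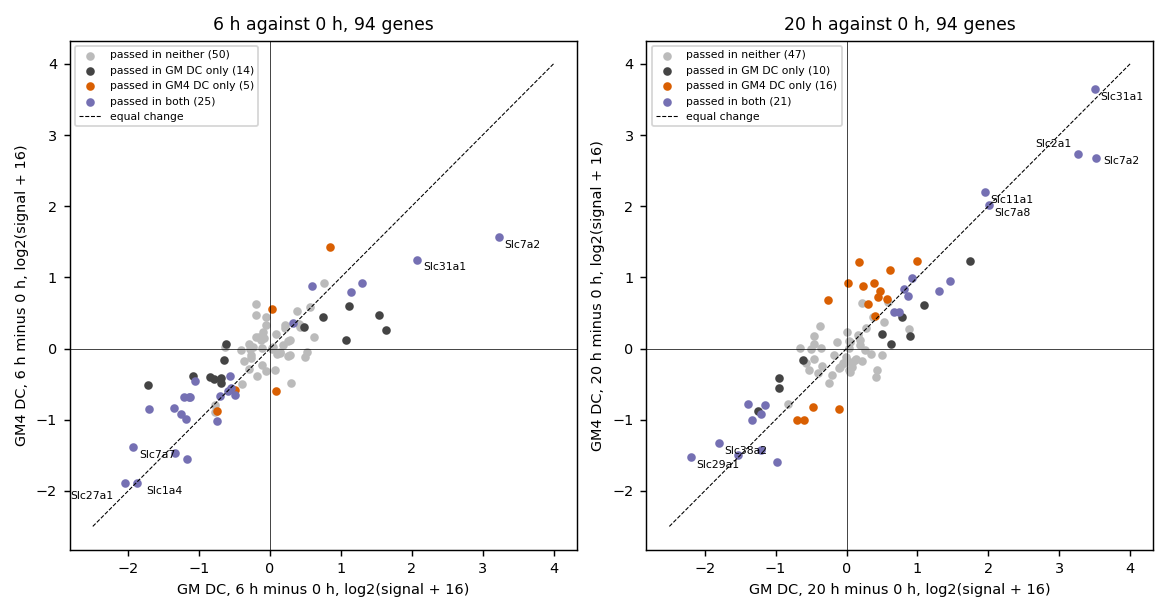
Change of each of the 94 genes in GM DC (horizontal axis) and GM4 DC (vertical axis), from 0 to 6 h on the left and from 0 to 20 h on the right, as differences of log2(signal + 16); colours show in which kind of DC the change passed. At 6 h Slc7a2 lies below the dashed line of equal change, at 3.23 in GM DC and 1.57 in GM4 DC, and at 20 h Slc31a1 lies close to it, at 3.51 and 3.64.

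Between 6 and 20 h most genes that passed were higher at 20 h. In GM DC 28 were higher and 9 lower at 20 h than at 6 h (39.4%, beside 27.7% of all genes at the minimum and 16.5% of all probe sets). Of all genes at the minimum, 15.2% were higher and 12.4% lower. In GM4 DC 19 were higher and 5 lower (25.5%, beside 20.3% and 11.7%), while 9.92% and 10.4% of all genes at the minimum were. These counts moved with single arrays: in GM DC to 24 without GM 6 h replicate 1, 20 without GM 6 h replicate 2, 21 without GM 20 h replicate 1 and 23 without GM 20 h replicate 2, and in GM4 DC to 15 when GM4 6 h replicate 2 was left out. Leaving out replicate 1 or 2 of GM4 DC at 20 h gave 14 or 8. Of the 24 genes that passed in GM4 DC, 7 passed without each array in turn: Slc2a1, Slc7a8, Slc11a1, Slc23a2, Slc27a4, Slc31a1 and Slc66a2.

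Promoter windows from RefSeq (250 bases before to 50 after an annotated start, mouse build GRCm38.p6) were held for 76 of the 94 genes, in 111 windows. A match to a κB site, the motif of NF-κB, was in 29.7% of these windows and in 20.7% of the 32851 windows of all genes. Of the 5 genes that rose at both times in both kinds of DC, 3 had a window (Slc7a8, Slc23a2 and Slc31a1), and 2 of them held a κB match. Of the 8 genes that fell at both times in both kinds, 7 had a window, and 3 of these (Slc7a7, Slc25a4 and Slc29a1) held a κB match. Of the 3 genes higher in GM4 DC at all times, each with a window, Slc1a4 and Slc25a4 held one, and Slc25a4 is also 1 of those that fell. The STAT6 site was in 6.31% of the windows of the 94 genes and 6.95% of all, and in none of these 3. The GAS motif (TTCNNNGAA) was in 2.7% and 8.3%, and in no window of the genes that rose, fell or were higher in GM4 DC. The hypoxia response element core (ACGTG) was in 26.1% and 19.6%. It was in 1 of the 3 genes with a window that rose, 4 of the 7 that fell and 1 of the 3 higher in GM4 DC. The sequences below belong to Slc31a1 and Slc23a2, which rose, and to Slc1a4, which was higher in GM4 DC at all times, and are shown 5′ to 3′ on the gene's strand up to the start, with κB matches on either strand in capitals.
Slc31a1, GRCm38.p6 chr4:62360451-62360700, plus strand, the 250 bases before the start: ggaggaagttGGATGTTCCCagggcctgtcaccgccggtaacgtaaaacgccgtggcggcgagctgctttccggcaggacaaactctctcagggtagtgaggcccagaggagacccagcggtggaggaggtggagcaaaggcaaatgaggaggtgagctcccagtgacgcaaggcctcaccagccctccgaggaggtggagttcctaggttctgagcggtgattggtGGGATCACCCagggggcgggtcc
Slc23a2, GRCm38.p6 chr2:132145109-132145358, minus strand, the 250 bases before the second of 2 starts: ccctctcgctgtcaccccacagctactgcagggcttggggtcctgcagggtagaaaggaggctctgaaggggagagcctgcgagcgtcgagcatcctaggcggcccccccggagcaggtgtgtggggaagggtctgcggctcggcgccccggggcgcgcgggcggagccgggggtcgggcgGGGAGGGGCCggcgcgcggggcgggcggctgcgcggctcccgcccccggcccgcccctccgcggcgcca
Slc1a4, GRCm38.p6 chr11:20332704-20332963, minus strand, 250 bases before and 10 after the start: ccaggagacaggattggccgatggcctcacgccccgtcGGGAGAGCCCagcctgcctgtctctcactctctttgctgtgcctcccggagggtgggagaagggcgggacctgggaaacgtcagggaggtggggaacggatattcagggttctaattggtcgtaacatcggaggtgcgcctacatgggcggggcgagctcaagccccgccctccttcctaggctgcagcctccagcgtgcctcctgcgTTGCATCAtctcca
In Slc31a1 the matches begin at bases 11 and 228 of the stretch shown, in Slc23a2 at base 182 and in Slc1a4 at base 39. The second run of capitals in Slc1a4, at base 247, is a match on the other strand to TGATGNAA, a core of the amino acid response element, which was in 3.97% of all windows and 5.41% of those of the 94 genes. A match is a description of the letters and not evidence of binding, and was not tested against the signals.

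Substrate classes were assigned by hand from family names, and the substrates of some members, such as Slc66a2, Slc35c2, Slc35e4 and Slc22a23, are uncertain, so the class counts are approximate. They are given beside the shares of all genes at the minimum that rose and fell: 12.6% and 27.9% in GM DC and 9.57% and 17.5% in GM4 DC at 6 h, and 17.1% and 26.3% and 13.2% and 20.3% at 20 h. No test of a class against these shares was made.

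Amino acid carriers were the largest class, with 19 genes. In GM DC 5 rose and 7 fell by 6 h, and in GM4 DC 3 rose and 8 fell (26.3% and 36.8% of the class in GM, 15.8% and 42.1% in GM4 DC). By 20 h 5 rose and 3 fell in GM DC and 8 rose and 4 fell in GM4 DC (26.3% and 15.8%, and 42.1% and 21.1%). The cationic amino acid transporter Slc7a2, which imports arginine, lysine and ornithine, had the largest 6 h rise of any of the 94 genes. Its signals in GM DC were 89.7, 148 and 95.7 before activation, 1200.5 and 1107 after 6 h and 1359 and 1477 after 20 h. In GM4 DC they were 98.9, 134 and 126 before activation, 538, 374 and 279 after 6 h and 763 and 934 after 20 h. The 0 h arrays of both kinds overlapped, all activated arrays lay above them, and at 6 h every GM4 array lay below every GM array. The rise at 6 h was 3.23 ± 0.24 in GM DC (adjusted p = 4.04e-07, limma) and 1.57 ± 0.21 in GM4 DC (adjusted p = 1.85e-04), and the difference between GM4 and GM DC at 6 h was -1.55 ± 0.24 (adjusted p = 8.89e-04). The 2 rises differed by -1.66 ± 0.32 (adjusted p = 0.0244), a call that was lost without any 1 of 4 arrays (-1.64 to -1.58). At 20 h the rises were 3.52 ± 0.24 and 2.67 ± 0.24, and GM4 and GM DC differed by -0.74 ± 0.26, which did not pass (adjusted p = 0.144).

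The other arginine carrier of the class moved the other way. Slc7a7 (y+LAT1), a light chain that exchanges cationic for neutral amino acids, was 145, 122 and 68.5 in GM DC and 283, 237 and 159 in GM4 DC at 0 h. At 6 h it was 5.36 and 33.3 in GM DC and 71.8, 68.5 and 84.6 in GM4 DC, and at 20 h 48.5 and 44.0 and 63.4 and 61.8. All activated arrays lay below the 0 h arrays of their own kind, and the 2 GM arrays at 6 h were far apart. The fall at 6 h was -1.93 ± 0.34 in GM DC and -1.38 ± 0.30 in GM4 DC, and at 20 h -1.59 ± 0.34 in GM4 DC. The fall in GM DC at 20 h (-0.99 ± 0.34) was lost without any 1 of 10 arrays (-1.04 to -0.79), and the excess in GM4 over GM DC at 6 h (1.48 ± 0.34) without GM 6 h replicate 1 (0.88). Slc7a1, the widely expressed arginine importer, was measured but below the minimum in every group, with a highest group mean of 5.28.

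The genes of the heterodimeric exchangers share the heavy chain Slc3a2 (4F2hc, CD98). Its signals were 1318, 1120.5 and 998 before activation, 2506 and 2342 after 6 h and 1919 and 1909 after 20 h in GM DC. The GM4 arrays gave 1311, 1342 and 1038 before activation, 1571, 1396 and 1057 after 6 h and 1796 and 1724 after 20 h. Both GM arrays at 6 h lay above every other array, and the GM4 arrays at 6 h overlapped those at 0 h. The heavy chain rose by 1.08 ± 0.17 at 6 h and 0.74 ± 0.17 at 20 h in GM DC, and by 0.52 ± 0.17 at 20 h in GM4 DC, where the call was lost without any 1 of 11 arrays (0.40 to 0.59). At 6 h it was -0.86 ± 0.17 lower in GM4 DC, a call lost without GM 6 h replicate 1 (-0.82). Its light chain Slc7a11 (xCT), which imports cystine in exchange for glutamate and feeds glutathione synthesis, was 42.1, 34.0 and 49.4 before activation, 148 and 154 after 6 h and 86.0 and 60.2 after 20 h in GM DC and 46.7, 73.5 and 52.2 before activation, 85.7, 107 and 66.7 after 6 h and 143 and 138 after 20 h in GM4 DC. The highest GM arrays were those at 6 h, and the highest GM4 arrays those at 20 h. Slc7a11 rose by 1.54 ± 0.22 at 6 h in GM DC (adjusted p = 1.47e-04) and by 1.11 ± 0.22 at 20 h in GM4 DC (adjusted p = 0.00245). The excess of GM over GM4 DC at 6 h (-0.73 ± 0.22) was lost without any 1 of 11 arrays (-0.75 to -0.58), and the fall in GM DC from 6 to 20 h (-0.92 ± 0.24) without any of GM 6 h replicate 1 (-0.94), GM 6 h replicate 2 (-0.90), or else GM 20 h replicate 2 (-0.71).

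Another light chain, Slc7a8 (LAT2), which exchanges neutral amino acids, was 118, 107 and 115 before activation, 326 and 283 after 6 h and 523 and 486 after 20 h in GM DC and 68.8, 73.2 and 56.5 before activation, 162, 146 and 114 after 6 h and 314 and 319 after 20 h in GM4 DC. At each time every GM array lay above every GM4 array, and in both kinds of DC the arrays of the 3 times were fully separated. The rise by 20 h was 2.01 ± 0.15 in GM DC and 2.02 ± 0.15 in GM4 DC, and GM4 DC were lower by -0.66 at 0 h and -1.04 at 6 h. The difference at 20 h (-0.65 ± 0.17) was lost without any 1 of 7 arrays (-0.70 to -0.59). Slc7a5 (LAT1), the leucine carrier that partners with the same heavy chain, was 238, 325 and 305 before activation, 139, 153 and 155 after 6 h and 104 and 175 after 20 h in GM4 DC. Its fall there was -0.88 ± 0.25 at 6 h (adjusted p = 0.0261), lost without any 1 of 5 arrays (-0.90 to -0.79). The fall at 20 h also passed (adjusted p = 0.0193) and was lost without either GM4 0 h replicate 2 (-0.92) or GM4 20 h replicate 1 (-0.67). In GM DC the changes were in the same direction, -0.75 ± 0.28 at 6 h and -0.60 ± 0.28 at 20 h, and did not pass (adjusted p = 0.0658 and 0.135, limma). The 2 responses differed by -0.13 ± 0.37 at 6 h, which did not pass. GM and GM4 DC did not pass against each other at any time.

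Slc1a4 (ASCT1), an exchanger of alanine, serine and cysteine, was higher in GM4 DC at each time. It was 97.9, 69.3 and 123 in GM and 396, 373 and 196 in GM4 DC at 0 h, 11.6 and 16.7 and 77.7, 69.0 and 67.5 at 6 h, and 86.7 and 22 and 187 and 159 at 20 h. Every GM4 array lay above every GM array of the same time, and in both kinds of DC the 6 h arrays were the lowest. Slc1a4 fell by 6 h by -1.88 ± 0.36 in GM DC (adjusted p = 0.00161) and by -1.89 ± 0.33 in GM4 DC (adjusted p = 0.00120). The excess in GM4 DC was 1.55 ± 0.33 before activation, 1.54 ± 0.36 at 6 h and 1.59 ± 0.40 at 20 h, and the call was lost at 6 h without GM 6 h replicate 1 (1.41) and at 20 h without any 1 of 4 arrays (0.88 to 1.70). With the RNA quality covariate the excess was 1.37, 1.35 and 1.36 and did not pass at any time.

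Slc1a5 (ASCT2), a glutamine carrier of the same family, fell by -1.19 ± 0.26 at 6 h and -1.53 ± 0.26 at 20 h in GM DC and by -0.99 ± 0.23 and -1.49 ± 0.26 in GM4 DC. Its 0 h signals were 78.6, 69.8 and 79.4 in GM and 68.0, 83.8 and 54.0 in GM4 DC, and every activated array lay between 5.91 and 30.9. Slc38a2 (SNAT2), a sodium-coupled carrier of small neutral amino acids, fell from 343, 249 and 385 to 87.6 and 74.1 in GM DC by 20 h and from 285, 309 and 259.7 to 102 and 104 in GM4 DC. These falls were -1.80 ± 0.21 and -1.33 ± 0.21. The other probe sets of Slc38a2 did not pass. Their mean signals over the arrays were 0.50, 2.46 and 4.90, below the offset, so they cannot test these falls. With the mean of all 4 probe sets of Slc38a2, which includes these dim ones, the falls were -0.32 and -0.29 and were lost. Slc38a10 fell at 6 h by -1.02 ± 0.17 in GM4 DC and by -0.75 ± 0.19 in GM DC, where the call was lost without GM 6 h replicate 1 (-0.74).

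Among the sodium- and chloride-coupled SLC6 carriers, the taurine transporter Slc6a6 rose at 6 h from 701, 881 and 802 to 1882 and 1666 in GM DC and from 950.4, 814 and 799 to 1743, 1419.5 and 1337 in GM4 DC. The rises were 1.15 ± 0.17 and 0.80 ± 0.16, and at 20 h 0.82 ± 0.17, lost without GM 20 h replicate 2 (0.64), and 0.84 ± 0.17, lost without GM4 20 h replicate 1 (0.61). With the mean of all its probe sets the 4 rises of Slc6a6 were between 0.34 and 0.52 and did not pass. The creatine transporter Slc6a8 fell at 6 h by -1.26 ± 0.22 in GM and -0.93 ± 0.19 in GM4 DC, and in GM DC it was higher at 20 h than at 6 h by 1.67 ± 0.24. Slc6a12, a carrier of betaine and GABA, was 67.6, 53.6 and 61.8 in GM and 29.1, 21.99 and 15.0 in GM4 DC at 0 h, a difference of -1.03 ± 0.23, and rose in GM4 DC by 20 h by 1.21 ± 0.25, a call lost without GM4 20 h replicate 2 (0.92). Slc66a2 was 368, 361 and 387 in GM and 187, 184 and 189 in GM4 DC at 0 h (-0.94 ± 0.13), fell at 6 h in GM DC (-1.06 ± 0.15) and in GM4 DC (-0.45 ± 0.13, lost without any 1 of 5 arrays (-0.47 to -0.37)) and was higher at 20 h than at 6 h by 1.46 ± 0.16 in GM and 0.91 ± 0.15 in GM4 DC. Its difference at 20 h (-0.87 ± 0.16) was lost without either GM 20 h replicate 2 (-0.70) or GM4 20 h replicate 1 (-0.71). Slc6a9, Slc6a18, Slc6a20b and Slc38a5 passed in no comparison.

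**Figure D3:**
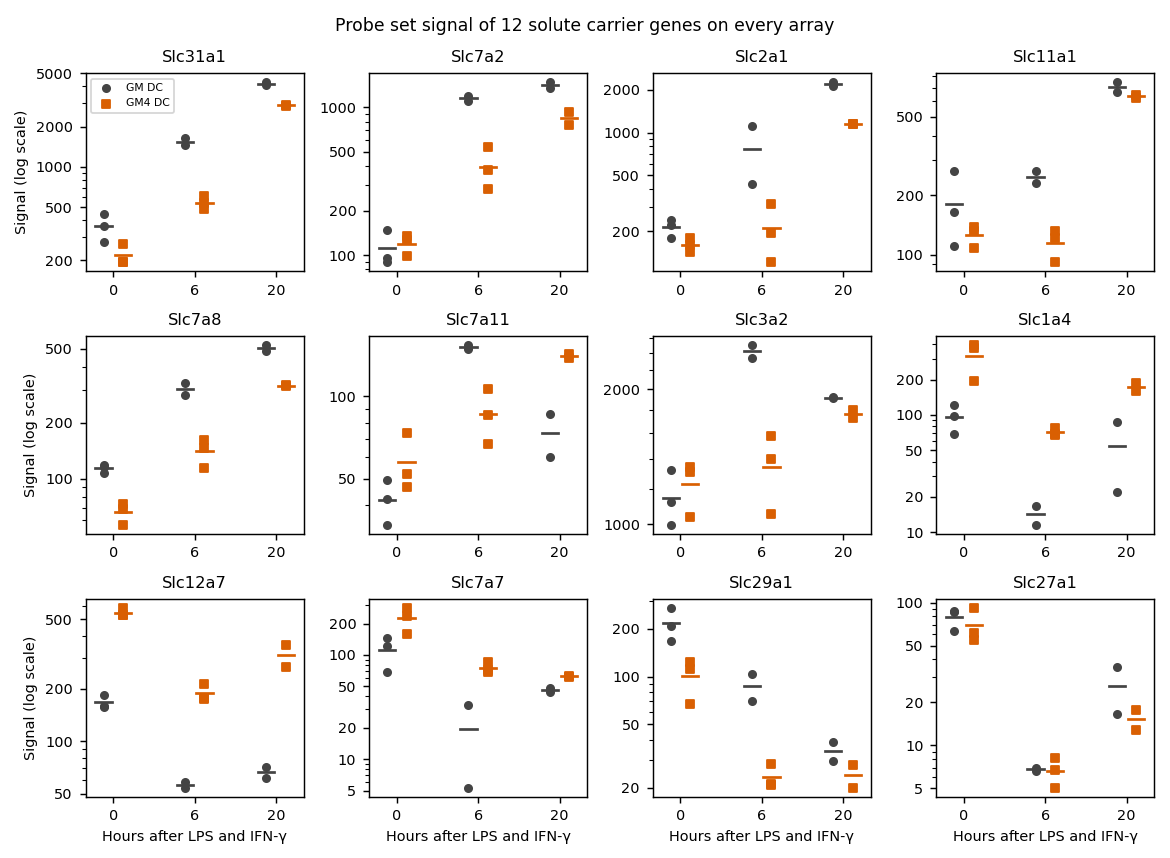
Signal of 12 solute carrier genes on each array against hours after LPS and IFN-γ, on a log scale; circles are GM DC, squares are GM4 DC and short lines are group means (n = 2 or 3 arrays). Slc31a1, Slc7a2 and Slc2a1 are higher at 20 h than at 0 h in both kinds of DC, Slc12a7 is higher in GM4 DC at every time, and Slc29a1 and Slc27a1 are lower after activation.

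Of the 15 metal carriers, 2 were higher and 4 lower in GM4 than in GM DC before activation (13.3% and 26.7%, beside 11.6% and 11.2% of all genes at the minimum). At 6 h the counts were 1 and 5 (6.67% and 33.3%, beside 11.3% and 7.04%), and at 20 h they were 1 and 1 (6.67% each, beside 5.33% and 2.66%). By 20 h 4 rose and 2 fell in GM DC, and 5 rose and 1 fell in GM4 DC (26.7% and 13.3%, and 33.3% and 6.67%). The copper importer Slc31a1 (CTR1) had the largest 20 h rise of the 94 genes in GM4 DC and nearly the same rise as Slc7a2 in GM DC. Its signals were 273, 447 and 359 before activation, 1641 and 1452 after 6 h and 4288 and 4062 after 20 h in GM DC. In GM4 DC they were 195, 264 and 196 before activation, 601, 532 and 480.1 after 6 h and 2853 and 2909.8 after 20 h. The 3 times were fully separated in both kinds of DC, and at each time every GM4 array lay below every GM array. The rise by 20 h was 3.51 ± 0.18 in GM DC (adjusted p = 1.33e-08) and 3.64 ± 0.18 in GM4 DC (adjusted p = 1.48e-08), and at 6 h 2.08 ± 0.18 and 1.25 ± 0.16. At 6 h GM4 DC were lower by -1.499 ± 0.18 (adjusted p = 1.98e-04), and at 0 h by -0.67 ± 0.16, a call lost without any of GM 0 h replicate 2 (-0.50), GM4 0 h replicate 1 (-0.60), or else GM4 0 h replicate 3 (-0.60). A second probe set of Slc31a1 gave the same call in all 8 comparisons in which the first one passed.

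Slc11a1 (NRAMP1), the macrophage phagosomal exporter of iron and manganese, was 264, 165 and 111 before activation, 265 and 229 after 6 h and 746 and 669 after 20 h in GM DC. In GM4 DC it was 108, 132 and 138 before activation, 132, 121 and 91.8 after 6 h and 622 and 642 after 20 h. The 20 h arrays of both kinds lay above all others, while the 0 h arrays of GM and GM4 DC overlapped. The rise by 20 h was 1.96 ± 0.25 in GM DC (adjusted p = 3.76e-05) and 2.20 ± 0.25 in GM4 DC (adjusted p = 2.84e-05), and neither kind passed at 6 h. At 6 h GM4 DC were lower by -1.02 ± 0.25, a call lost without either GM 6 h replicate 1 (-0.92) or GM4 6 h replicate 3 (-0.88). Signals of the monocyte and macrophage markers summed to 16119 to 23176 in GM and 4389 to 5890 in GM4 DC at 6 h. At 20 h they summed to 13971 to 15056 and 7918 to 7998, although the marker Adgre1 was then higher in GM4 DC (491.2 in GM, 662.2 in GM4 DC). The part of these markers in the levels of Slc11a1 was not tested.

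Slc11a2 (DMT1), the endosomal importer of ferrous iron, was lower in GM4 DC at every time, by -0.53 ± 0.16, -0.66 ± 0.18 and -0.87 ± 0.20. Its signals were 231, 192 and 241 in GM and 122, 137 and 189 in GM4 DC at 0 h, and 403 and 377 and 189 and 224 at 20 h. A second probe set gave the same call at 6 h and did not pass at 0 and 20 h. Each of these calls rested on single arrays: at 0 h it was lost without any 1 of 8 arrays (-0.53 to -0.41), at 6 h without any of GM 6 h replicate 1 (-0.49), GM4 6 h replicate 2 (-0.62), or else GM4 6 h replicate 3 (-0.62) and at 20 h without any 1 of 4 arrays (-0.99 to -0.76). In GM DC Slc11a2 rose by 20 h by 0.78 ± 0.18. The iron exporter Slc40a1 and the zinc and iron importer Slc39a14 were not analysed here.

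The zinc exporters of the SLC30 family differed in direction. Slc30a4, which loads zinc into endosomal vesicles, was 70.1, 79.5 and 140.2 in GM and 406, 401 and 215 in GM4 DC at 0 h, the largest excess in GM4 DC at that time (1.66 ± 0.26, adjusted p = 6.87e-04). At 6 h it was 94.5 and 144 and 197, 263 and 231, a difference of 0.88 ± 0.29 that did not pass (adjusted p = 0.0694). At 20 h it was 54.5 and 48.2 and 175 and 139, and the excess of 1.35 ± 0.32 was lost without any 1 of 4 arrays (1.21 to 1.503). Slc30a1, the plasma membrane zinc exporter, was lower in GM4 DC at 6 h by -1.11 ± 0.23, lost without GM 6 h replicate 2 (-0.96). Its group means ran from 17.6 to 65.5, and it met the minimum only in the GM 6 h group. This difference therefore follows in part from the minimum and is a description only. Slc30a5, which delivers zinc to the secretory pathway, fell in GM DC by 20 h by -0.95 ± 0.23.

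Among the zinc importers of the SLC39 family, Slc39a4 rose in GM4 DC by 20 h from 398, 354 and 489 to 798 and 784 (0.92 ± 0.17). Its second probe set gave 0.28 in that comparison and did not pass. Slc39a7, which releases zinc from the endoplasmic reticulum, fell in GM4 DC at 6 h from 388, 394 and 470.5 to 214, 277 and 289 (-0.66 ± 0.15; in GM DC -0.50 ± 0.17, lost without any 1 of 11 arrays (-0.59 to -0.37)). The magnesium transporter Slc41a1 was higher in GM4 DC at 0 h (86.8, 56.1 and 87.6 in GM, 189, 193 and 175 in GM4 DC) and at 6 h (122 and 122 and 450.3, 327 and 306). Its differences were 1.14 ± 0.17 and 1.43 ± 0.20, and it rose at 6 h in GM4 DC (0.88 ± 0.17; in GM DC 0.59 ± 0.20, lost without any 1 of 6 arrays (0.42 to 0.60)). It fell in GM4 DC from 6 to 20 h by -0.97 ± 0.20, lost without GM4 20 h replicate 2 (-0.83). Slc30a9, Slc39a1 and Slc39a6 passed in no comparison.

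Of the 5 sugar carriers, the glucose transporter Slc2a1 (GLUT1) rose most. It was 242, 224 and 178 before activation, 1109.6 and 430.4 after 6 h and 2266 and 2129 after 20 h in GM DC. Its GM4 signals were 160.1, 180.3 and 144 before activation, 314, 196 and 122 after 6 h and 1156 and 1155 after 20 h. The 20 h arrays of both kinds lay above all earlier arrays, the 2 GM arrays at 6 h were far apart, and the GM4 arrays at 6 h overlapped those at 0 h. By 20 h Slc2a1 rose by 3.27 ± 0.34 in GM DC (adjusted p = 7.06e-06) and by 2.73 ± 0.34 in GM4 DC (adjusted p = 7.16e-05). The rise in GM DC at 6 h (1.63 ± 0.34) was lost without GM 6 h replicate 1 (0.96), and the deficit of GM4 DC at 6 h (-1.74 ± 0.34) without GM 6 h replicate 1 (-1.07). At 20 h GM4 DC had 1155 against 2197 in GM DC, a difference of -0.92 ± 0.38 that did not pass (adjusted p = 0.220). Slc2a3 (GLUT3) went from 22.5 and 27.4 at 6 h to 78.1 and 101 at 20 h in GM DC, a rise of 1.36 ± 0.28 (in GM4 DC 0.69 ± 0.26, not passed). Slc50a1, a sugar efflux carrier, fell at 6 h by -1.15 ± 0.14 in GM and -0.68 ± 0.12 in GM4 DC and was higher at 20 h than at 6 h in GM DC (1.11 ± 0.15) and in GM4 DC (0.48 ± 0.14, lost without any 1 of 5 arrays (0.35 to 0.61)). Slc37a4, which carries glucose 6-phosphate into the endoplasmic reticulum, was higher at 20 h than at 6 h in GM DC (1.66 ± 0.34) and in GM4 DC (1.07 ± 0.31, lost without any 1 of 10 arrays (0.84 to 1.12)).

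Of the 14 mitochondrial carriers, 2 rose and 5 fell in GM DC at 6 h (14.3% and 35.7%) and 1 rose and 3 fell in GM4 DC (7.14% and 21.4%). At 20 h 2 rose and 3 fell in GM DC (14.3% and 21.4%), and 1 rose and 4 fell in GM4 DC (7.14% and 28.6%). More genes falling than rising is also what all genes at the minimum showed. Slc25a4, the ADP/ATP exchanger ANT1, was 1005, 831 and 865 before activation, 569 and 636 after 6 h and 345 and 317 after 20 h in GM DC. In GM4 DC it was 1459, 1462 and 1298 before activation, 1045, 1039.9 and 1130.2 after 6 h and 856 and 768 after 20 h. Every GM4 array lay above every GM array of the same time, and the 20 h arrays were the lowest of each kind. The excess in GM4 DC was 0.64 ± 0.11 at 0 h, 0.82 ± 0.12 at 6 h and 1.25 ± 0.13 at 20 h (adjusted p = 0.00121, 6.64e-04 and 2.83e-04, limma). The fall by 20 h was -1.40 ± 0.12 in GM and -0.78 ± 0.12 in GM4 DC. Slc25a39, a carrier that supplies mitochondria with glutathione, fell from 716, 707 and 722 to 246 and 301 in GM DC (-1.34 ± 0.14) and from 795, 647 and 846 to 375 and 364 in GM4 DC (-1.01 ± 0.14) by 20 h. The second ADP/ATP exchanger, Slc25a5 (ANT2), is read here by a probe set named as shared within a gene family, and fell by 20 h by -1.21 ± 0.20 in GM and -0.92 ± 0.20 in GM4 DC, the second of which was -0.30 and did not pass with the mean of all its probe sets.

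A few mitochondrial carriers rose. Slc25a51, the NAD carrier, was 116, 153 and 126 before activation and 361 and 414 at 20 h in GM DC (1.46 ± 0.20), and rose in GM4 DC by 0.95 ± 0.20, a call lost without GM4 20 h replicate 2 (0.87). The citrate carrier Slc25a1, which exports citrate for lipid synthesis, rose in GM4 DC at 6 h from 347, 418 and 411 to 633, 526 and 597 (0.56 ± 0.12) and was then 0.68 ± 0.13 above GM DC. Slc25a25, a calcium-regulated carrier of ATP-Mg and phosphate, rose in GM DC at 6 h by 1.11 ± 0.29, lost without GM 6 h replicate 2 (0.85), and fell from 6 to 20 h by -1.22 ± 0.32, lost without either GM 6 h replicate 2 (-0.96) or GM 20 h replicate 2 (-0.72). At 0 h it was 1.06 ± 0.26 higher in GM4 DC, lost without GM 0 h replicate 1 (0.78). Slc25a36, a carrier of pyrimidine nucleotides, was lower in GM4 DC at 0 h, 341, 309 and 402 against 691, 590.5 and 738 in GM DC (-0.91 ± 0.13). Slc25a17, Slc25a20, Slc25a28 and Slc25a44 passed in no comparison.

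Carriers of nucleosides, nucleotide sugars and acetyl-CoA, 11 genes, fell at 6 h in 5 cases in GM DC (45.5%) and 3 in GM4 DC (27.3%), and none rose, beside the 12.6% and 9.57% of all genes at the minimum that did. The nucleoside transporter Slc29a1 (ENT1), which equilibrates adenosine and other nucleosides across the plasma membrane, was 168, 271 and 209.6 before activation, 70.0 and 104 after 6 h and 29.5 and 38.6 after 20 h in GM DC. In GM4 DC it was 112, 67.7 and 124 before activation, 28.0, 20.7 and 21.2 after 6 h and 20.0 and 27.8 after 20 h. All activated arrays lay below the 0 h arrays of their kind, and at 0 and 6 h every GM4 array lay below every GM array. By 20 h Slc29a1 fell by -2.20 ± 0.26 in GM DC (adjusted p = 2.01e-05) and -1.52 ± 0.26 in GM4 DC (adjusted p = 8.15e-04), and at 6 h it was -1.38 ± 0.26 lower in GM4 DC. The fall in GM DC at 6 h (-1.17 ± 0.26) was lost without GM 6 h replicate 1 (-0.93), and the difference at 0 h (-0.999 ± 0.23) without either GM 0 h replicate 2 (-0.83) or GM4 0 h replicate 2 (-0.77). A second probe set of Slc29a1 did not move with the first, and with the mean of its probe sets the falls at 6 h (-0.46 in GM DC, -0.61 in GM4 DC) and in GM4 DC at 20 h (-0.39) were lost.

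Of the Golgi carriers of the SLC35 family, Slc35c2 was 236, 294 and 208 in GM and 134, 129.9 and 126 in GM4 DC at 0 h (-0.83 ± 0.16) and fell at 6 h by -1.71 ± 0.18 in GM and -0.85 ± 0.16 in GM4 DC. Slc35e4 was lower in GM4 DC at 0 h by -0.83 ± 0.18, fell in GM DC at 6 h by -1.08 ± 0.20 and was higher at 20 h than at 6 h there (1.38 ± 0.22) and in GM4 DC (1.001 ± 0.20, lost without GM4 20 h replicate 2 (0.89)). The CMP-sialic acid carrier Slc35a1 fell at 6 h in GM DC (-1.21 ± 0.22) and in GM4 DC (-0.68 ± 0.19, lost without any of GM4 0 h replicate 2 (-0.64), GM4 0 h replicate 3 (-0.62), or else GM4 6 h replicate 1 (-0.48)). Slc35b1, Slc35d1, Slc35e1 and Slc35g3 passed in no comparison.

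In the class of organic cations, amines, choline and carnitine, 11 genes, 4 passed between GM4 and GM DC at 0 h (36.4%, beside 22.8% of all genes at the minimum). At 6 h 2 passed (18.2%, beside 18.4%), and at 20 h none (beside 7.99%). From 0 to 20 h 1 passed in GM DC (9.09%, beside 43.4%) and 4 in GM4 DC (36.4%, beside 33.5%). Only Slc22a18, Slc44a1, Slc44a2 and Slc44a4 were at the minimum in all 6 groups. From 0 to 6 h none passed in GM DC and 1 in GM4 DC, beside 40.5% and 27.1% of all genes at the minimum. That gene was Slc22a21 (Octn3), a carnitine transporter, at 24.9, 14.3 and 21.5 at 0 h and 142, 69.4 and 50.4 at 6 h in GM4 DC, a rise of 1.42 ± 0.30. Its falls from 6 to 20 h, -1.22 ± 0.36 in GM and -1.11 ± 0.33 in GM4 DC, were lost without any 1 of 4 arrays (-1.48 to -0.97) and without any 1 of 12 arrays (-1.32 to -0.75). Slc22a4 (Octn1), which carries ergothioneine, was 10.96, 17.6 and 26.6 before activation, 30.4 and 5.404 after 6 h and 105 and 88.9 after 20 h in GM DC. Its signals at 0 and 6 h were near or below the offset of 16, so the size of its change depends on the offset. From 6 to 20 h it rose in GM DC (1.83 ± 0.46, lost without any of GM 6 h replicate 2 (1.28), GM 20 h replicate 1 (1.74), or else GM 20 h replicate 2 (1.94); 2.78 with an offset of 1 and 0.99 with 64), and its rise from 0 h (1.74 ± 0.42) was lost without GM 20 h replicate 1 (1.64). Slc22a23 was higher in GM4 DC at 0 h, 63.3, 74.1 and 69.4 against 23.1, 17.5 and 30.0 (1.11 ± 0.20). The noradrenaline transporter Slc6a2 was lower in GM4 DC at 0 h (-0.95 ± 0.24, lost without either GM 0 h replicate 3 (-0.79) or GM4 0 h replicate 1 (-0.80)) and at 6 h (-1.09 ± 0.27, lost without any of GM 6 h replicate 1 (-1.24), GM 6 h replicate 2 (-0.93), or else GM4 6 h replicate 2 (-0.93)). Slc44a2, a choline transporter-like protein, was higher at 20 h than at 6 h in GM DC (0.87 ± 0.19) and in GM4 DC (0.83 ± 0.17, lost without GM4 20 h replicate 2 (0.77)).

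Inorganic ion carriers, 8 genes, included the largest difference between GM4 and GM DC at 20 h. The potassium-chloride cotransporter Slc12a7 (KCC4) was 159, 158 and 185 before activation, 58.6 and 54.2 after 6 h and 61.7 and 71.3 after 20 h in GM DC. In GM4 DC it was 583, 528 and 532 before activation, 214, 177 and 174 after 6 h and 358 and 268 after 20 h. At each time every GM4 array lay above every GM array, and the 0 h arrays were the highest of each kind. The excess in GM4 DC was 1.62 ± 0.13 at 0 h, 1.49 ± 0.15 at 6 h and 1.99 ± 0.16 at 20 h (adjusted p = 1.09e-05, 6.03e-05 and 4.13e-05, limma). Slc12a7 fell at 6 h by -1.34 ± 0.15 in GM and -1.47 ± 0.13 in GM4 DC, and stayed below 0 h at 20 h by -1.15 ± 0.15 and -0.79 ± 0.15. The sodium-calcium exchanger Slc8a1 went the other way, at 328, 298 and 311 in GM and 147, 181 and 135 in GM4 DC at 0 h (-0.95 ± 0.18) and 384 and 385 and 186, 173 and 149 at 6 h (-1.12 ± 0.20). None of its comparisons between times passed. The phosphate carrier Slc20a1 was higher in GM4 DC at 6 h by 0.82 ± 0.16 and at 20 h by 1.07 ± 0.17, lost without GM4 20 h replicate 1 (1.00). The anion exchanger Slc4a3 fell in GM DC at 6 h by -0.69 ± 0.15.

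**Figure D4:**
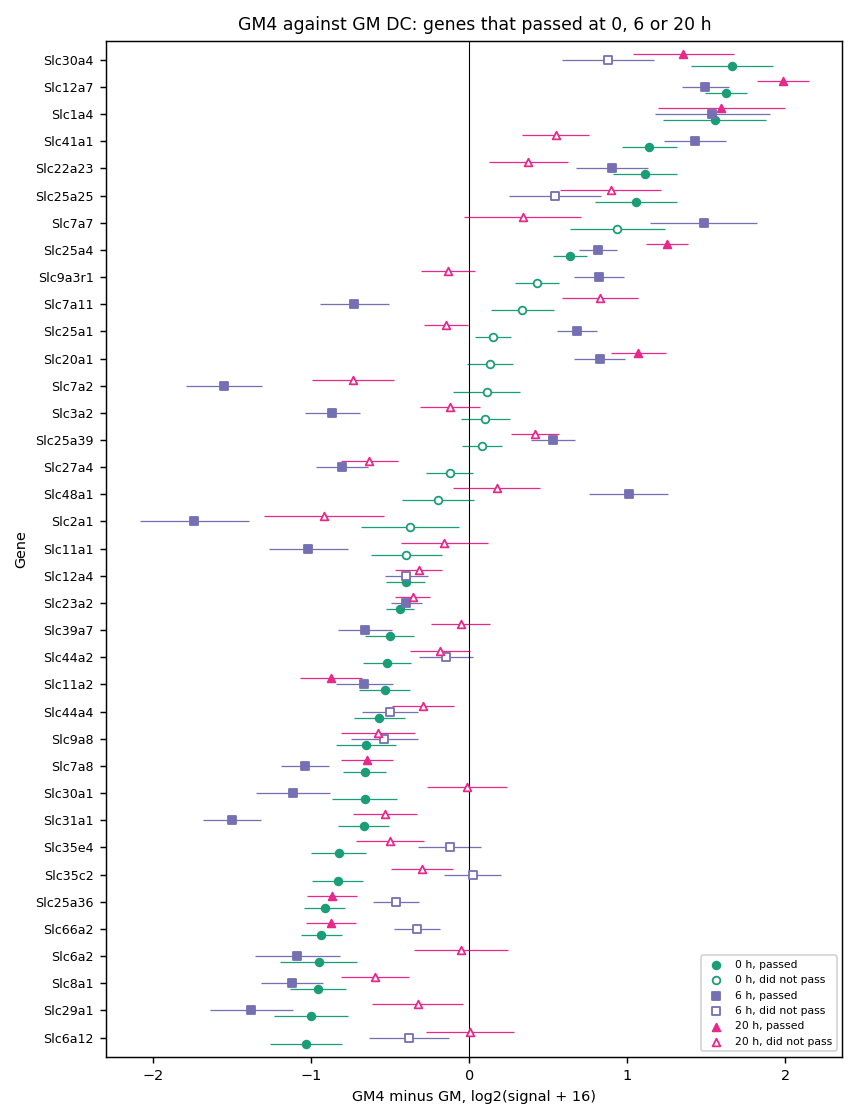
Difference between GM4 and GM DC at 0, 6 and 20 h, in log2(signal + 16) with bars of 1 standard error, for the solute carrier genes that passed at 1 time or more; filled symbols passed and open symbols did not. Slc12a7, Slc1a4 and Slc25a4 are filled to the right of 0 at all 3 times, and Slc7a8 and Slc11a2 to the left.

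Carriers of vitamins, heme, urea and fatty acids, 6 genes, held members that rose and members that fell. The vitamin C transporter Slc23a2 (SVCT2) was 524, 534 and 541 before activation and 1003 and 1038 at 20 h in GM DC. The GM4 arrays gave 399, 394 and 377 and 829 and 758. The 20 h arrays lay above the 0 h arrays by 0.92 ± 0.10 in GM and 0.995 ± 0.10 in GM4 DC, and GM4 DC were lower at 0 h by -0.44 ± 0.09. Its smaller changes at 6 h were lost without any 1 of 4 arrays (0.28 to 0.36) in GM DC and without GM4 6 h replicate 2 (0.33) in GM4 DC, as was the difference between them at 6 h (-0.40 ± 0.10) without any of GM 6 h replicate 1 (-0.44), GM 6 h replicate 2 (-0.36), or else GM4 6 h replicate 3 (-0.36). The fatty acid transport protein Slc27a1 (FATP1) was 87.6, 85.9 and 63.4 before activation and 6.91 and 6.67 at 6 h in GM DC. Its GM4 signals were 91.9, 61.1 and 54.7 and 6.75, 8.17 and 5.07. It fell at 6 h in GM DC (-2.05 ± 0.24) and in GM4 DC (-1.89 ± 0.22). All 6 h signals lay below the offset of 16, which sets the size of these falls: they were -3.35 and -3.18 with an offset of 1 and -1.01 and -0.90 with 64. Its relative Slc27a4 rose by 20 h by 1.31 ± 0.17 in GM and 0.80 ± 0.17 in GM4 DC, and was lower in GM4 DC at 6 h by -0.80 ± 0.17. The heme transporter Slc48a1 (HRG1), which moves heme out of the phagolysosome, fell in GM DC at 6 h from 146, 84.1 and 98.8 to 15.0 and 28.6 (-1.73 ± 0.25). At that time it was 1.01 ± 0.25 higher in GM4 DC, lost without either GM 6 h replicate 1 (0.75) or GM4 6 h replicate 3 (0.95).

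Among the 3 carriers of carboxylates, bile acids and other organic anions, Slc10a6, which imports steroid sulfates, rose in GM4 DC by 20 h by 1.23 ± 0.38, lost without any 1 of 4 arrays (0.97 to 1.495), and Slc10a3 and Slc16a8 passed in no comparison. The lactate exporter Slc16a3 and the lysosomal peptide and histidine carrier Slc15a3 were not analysed here. Slc9a3r1 and Slc4a1ap carry the family name but are proteins that bind carriers, not carriers. Slc9a3r1, a scaffold for membrane proteins, was 369 and 333 in GM and 616, 575 and 713 in GM4 DC at 6 h (0.82 ± 0.16). Of the 56 genes below the minimum, 4 passed in at least 1 comparison (Slc4a4, Slc7a3, Slc22a6 and Slc32a1), with highest group means of 19.1 to 43.8.

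**Figure D5:**
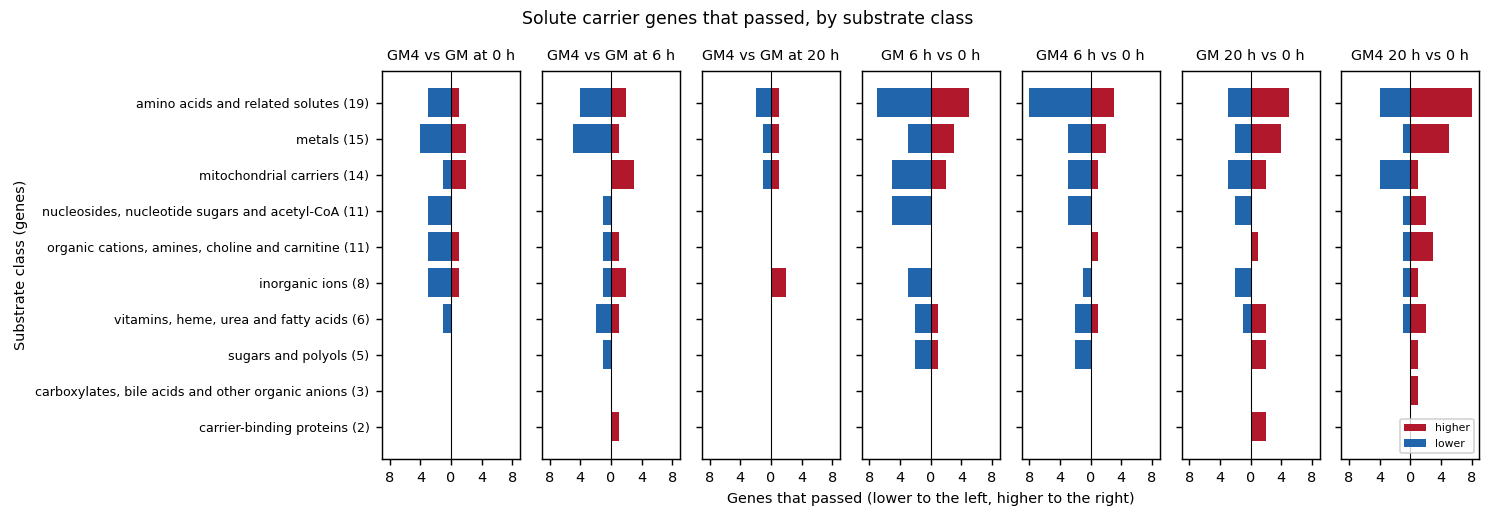
Number of genes that passed in 7 comparisons by substrate class, with genes lower in the first-named group to the left and higher to the right; the number of genes in each class stands in brackets. Amino acid carriers, the largest class, have the most genes falling at 6 h, 7 in GM DC and 8 in GM4 DC, and the most rising at 20 h, 5 and 8. As shares in GM DC these are 36.8% and 26.3%, below the 45.5% of nucleoside carriers that fell and the 40% of sugar carriers that rose. In GM4 DC they are 42.1% each, beside 40% of sugar carriers that fell and 33.3% of metal carriers that rose.

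More than 1 probe set was held for 24 of the 94 genes, and the other probe sets were compared wherever the chosen one passed. Of these comparisons, the other probe set gave the same call in 18 and did not pass in 65, and none gave the opposite call. The same call was given in each such comparison for Slc30a5 and Slc31a1, and in some but not all for Slc11a2, Slc25a1, Slc25a51 and Slc39a4. These other probe sets had mean signals of 57.8 to 421 over the arrays. Those of Slc2a8, Slc6a8, Slc8a1, Slc30a3, Slc30a4, Slc38a2, Slc38a10 and Slc44a4 had means of 0.50 to 9.97, below the offset. They were too dim to test the chosen probe set. Brighter ones that did not pass included those of Slc29a1 (38.2) and Slc6a6 (48.3) and the brighter one of Slc25a5 (58.8). Over the 11 comparisons the 94 genes gave 259 calls, of which 128 were lost when at least 1 single array was left out and none was reversed. The calls that held without each array in turn numbered 14 of 25 at 0 h, 12 of 26 at 6 h and 2 of 9 at 20 h for GM4 against GM DC, 23 of 39 and 20 of 31 for GM DC at 6 and 20 h, and 21 of 30 and 18 of 37 for GM4 DC.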

How the data were processed

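Affymetrix mouse arrays were hybridised with biotin-labelled total RNA, 15 arrays in 6 groups taken from the sample titles. The deposited values are linear intensities, 1 signal per probe set and array, made with MAS5 per the submitters' processing notes (version not given in the sources used here). Each array has the same 2% trimmed mean, about 150.1, which fixes the overall level. The number of arrays limits the precision. Gene symbols came from the platform annotation: 10833 of 12422 probe sets had 1 symbol, 396 several and 1193 none, and 66 control probe sets were left out.

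Signals were analysed as log2(signal + 16) with limma 3.58.1 in R 4.3.3: 6 group means over all 15 arrays, eBayes with intensity trend (residual degrees of freedom 9, prior 4.76), 11 contrasts, Benjamini-Hochberg adjustment over 12422 probe sets, threshold 0.05. Scripts were tested on simulated data. The genes named are the 4 with the largest change each way among those that passed in GM4 against GM DC at 0 and 6 h and in both 6 h responses, 2 each way in the other comparisons, and a fixed list of iron, arginine, cystine, glucose and related carriers; others are named within their substrate class, some after their values were seen. Members, classes and lists were chosen with earlier results of these data known. Measured genes left out by the rule, 1 in number, are not reported here. Alternatives tried were offsets of 1 and 64, quantile and median scaling, a filter at the 40th percentile, no trend, averaging probe sets, fitting only the groups compared, the replicate number as a block, an RNA quality covariate (mean log2 of the Gapdh and actin 3′ to 5′ ratios), other minimums, and leaving out arrays.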

Additional observations from a re-analysis of the deposited data

Results flagged for a closer look

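The response of Slc7a2 to 6 h of LPS and IFN-γ differed between the 2 kinds of DC. By limma's test of the difference between the responses, adjusted over 12422 probe sets, the rise was smaller in GM4 than in GM DC by 1.66 on the log2(signal + 16) scale (GM4 minus GM, -1.66, adjusted p = 0.0244). Slc7a2 was the only 1 of the 94 genes to pass this test (1.06%, beside 1.8% of all genes at the minimum). It did not pass when only the groups compared were fitted. All 3 GM4 arrays at 6 h lay below both GM arrays. The call was lost without GM 6 h replicate 1 (-1.60), GM4 0 h replicate 2 (-1.58), GM4 0 h replicate 3 (-1.62) or GM4 6 h replicate 2 (-1.64). The monocyte and macrophage markers, which were also lower in GM4 DC, summed to 16119 to 23176 in GM and 4389 to 5890 in GM4 DC at 6 h, and their part in this difference was not tested.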

How the results depend on the processing

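Of 259 calls over 11 comparisons, 110 held under every alternative and every array left out, 149 were lost under at least 1, and none reversed. The numbers of genes that passed under the setting named were as follows, and the causes were not tested unless the setting itself changes the genes or arrays used. With the RNA quality covariate they were 13, 16 and 3 for GM4 against GM DC at 0, 6 and 20 h. Fitting only the groups compared, with fewer arrays, gave 13 for GM4 against GM DC at 6 h, 25 for GM DC at 6 h and 16 for GM DC from 6 to 20 h. Without GM 0 h replicate 3 and GM 6 h replicate 1 together, 14 passed for GM4 against GM DC at 6 h. Requiring the minimum in all 6 groups, which leaves 59 genes, gave 17 there, 19 and 24 for GM4 DC at 6 and 20 h, and 23 for GM DC from 6 to 20 h. The test between responses at 6 h gave 0 when only the groups compared were fitted or both named arrays were left out, and 2 with median centring, the filter on low signals or the RNA quality covariate, the second gene being Slc3a2 (-1.03, -0.97 and -0.98). At 20 h it gave 1, Slc20a1, with the filter (0.94) or the RNA quality covariate (1.02).

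Leaving out single arrays gave 17 to 25, 14 to 29 and 2 to 10 genes for GM4 against GM DC at 0, 6 and 20 h, 30 to 40 and 27 to 33 for GM DC at 6 and 20 h, 22 to 32 and 21 to 38 for GM4 DC, 20 to 37 and 8 to 26 from 6 to 20 h in GM and GM4 DC, and 0 to 2 and 0 to 1 for the tests between responses at 6 and 20 h.

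Arrays with the same replicate number correlated at 0.003 to 0.33 in their deviations from group means (17 of 33 pairs above 0.1). Arrays with different numbers correlated at -0.30 to 0.17 (2 of 60 pairs above 0.1), and 13 of 15 arrays correlated best with their own number. In a group of 2 arrays the deviations from the group mean are mirror images. Part of the negative values for different numbers is therefore fixed by the calculation. The labels do not say that a number marks a shared animal, batch or day, so the numbers were not taken as pairing in the main fit. With the replicate number as a block, 5 of the 259 calls were lost, and the tests between responses gave 2 genes at 6 h (with Slc3a2, -0.84) and 1 at 20 h (Slc20a1, 0.94). Between 29.7 and 35.3% of probe sets per array were below a signal of 16, where differences are compressed by the offset.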
